A study of Homo sapiens with 4 samples.

Results

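CDKN1A, which encodes the cyclin-dependent kinase inhibitor p21, was examined with 8 further target genes of the transcription factor p53 (MDM2, GDF15, BBC3, BAX, FAS, SESN1, TP53I3 and TP53INP1). These 9 genes were read by symbol from a deposited table of 23615 gene symbols, and each symbol has a single entry. The set was chosen by the CPC against ECsXAV difference in CDKN1A FPKM, which was already known from these libraries, with the others added as textbook p53 targets, so the difference between the groups in these 9 genes is a description, with no p-value given. The question was whether the difference in CDKN1A is shared by other p53 targets.

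The data are poly-A RNA-seq of unsorted day 14 cultures of RUES2, a human embryonic stem cell line, with 2 biological replicates in each of 2 groups. All cultures were induced with activin A and BMP4 in the high activin, low BMP4 condition, and the stated protocol also uses CHIR-99021, an activator of Wnt/β-catenin signaling, before and during induction. In the CPC group, cardiac progenitor cells (CPCs) went on to cardiomyocytes in the standard monolayer differentiation, in which XAV-939, a tankyrase inhibitor that blocks Wnt/β-catenin signaling, is given early in a subset of experiments. Whether these CPC cultures received it is not given in the sources used here. In the ECsXAV group, the induced cells were changed on day 2 to a medium with VEGF, bFGF and BMP4 to form hemogenic endothelial cells, which were then respecified with 2 µM XAV-939. Values are FPKM, the fragments of a gene per kilobase of its exons, scaled to the mapped fragments of the library. The cardiomyocyte marker TNNT2 was at 2309 to 2988 FPKM in the 4 libraries, whereas the endothelial marker PECAM1 was at 0.0425 to 0.233 FPKM. Relative to ECsXAV replicate 1, the sequencing depth of the other libraries was 50.1% to 86.9%. Since the cultures were unsorted, fewer cells that express a gene and less RNA per cell cannot be told apart.

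The protein p53 is held at low levels by the ubiquitin ligase MDM2 and accumulates after DNA damage or other stress. It then binds pairs of short half-sites in the DNA and activates genes for cell cycle arrest, apoptosis, DNA repair and metabolic adjustment, together with MDM2 and other genes that switch it off again. p21 stops the cell cycle by binding cyclin-CDK complexes and the replication clamp PCNA. CDKN1A is also induced without p53, for example by TGFβ signaling and during terminal differentiation of muscle.

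Sites in the DNA are shown because direct targets of p53 are defined by its binding near the gene. Both strands of the reference genome (GRCh37, the build of hg19) were read within 5000 bases of the 5′ end of each gene for the p53 consensus full site. This site has 20 bases in 2 abutting half-sites of 10 bases, each with a core of C, 2 bases that are A or T, and G. Both cores had to be intact and up to 2 mismatches were allowed outside them. A match was found at 992 of 20090 protein-coding genes (4.94%), at 2 of the 9 genes here (22.2%) and at 19 of 67 further p53 targets (28.4%) that are described later. The matches of CDKN1A and FAS, and for comparison those of 4 of the further targets, are written 5′ to 3′ on the gene's strand with the cores in capitals.
CDKN1A, chr6:36644226-36644245: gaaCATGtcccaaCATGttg
FAS, chr10:90751066-90751085: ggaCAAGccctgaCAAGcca
GADD45A, chr1:68152458-68152477: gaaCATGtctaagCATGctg
BTG2, chr1:203272770-203272789: acgCATGttcaggCATGcat
PLK2, chr5:57758101-57758120: aaaCATGcctggaCTTGccc
ZMAT3, chr3:178787976-178787995: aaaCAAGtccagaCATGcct
The match of CDKN1A spans the annotated 5′ end of the gene and lies in part in a 5′ UTR exon, and that of FAS lies 661 bases inside the gene, in an exon of a noncoding FAS transcript. The matches of GADD45A and ZMAT3 are intronic, and those of BTG2 and PLK2 lie upstream, at positions -1839 and -2144 relative to the gene's 5′ end. PLK2 and ZMAT3 match at every position, GADD45A has 1 mismatch and the others have 2. A match is a property of the letters only, and the absence of one at the remaining 7 genes covers only this window and this form of the site.

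CDKN1A (chromosome 6, 36644237 to 36655114) was the most abundant of the 9 genes in every library. It had 135 and 174 FPKM in the pair of ECsXAV libraries, compared with 30.2 and 44.7 FPKM in the CPC pair. The lowest ECsXAV library stood 3.03-fold above the highest CPC library, and the ratio of the group means was 4.12. On the log2(FPKM + 1) scale, on which an added 1 understates differences of weakly expressed genes, the CPC minus ECsXAV difference was -2.03 (standard error 0.23, n = 2 per group). Ordered from the most negative difference, CDKN1A was at position 100 of the 12398 genes with a mean of at least 1 FPKM. Leaving out 1 library at a time gave differences from -2.31 (without CPC replicate 2) to -1.76 (without CPC replicate 1).

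**Figure D1:**
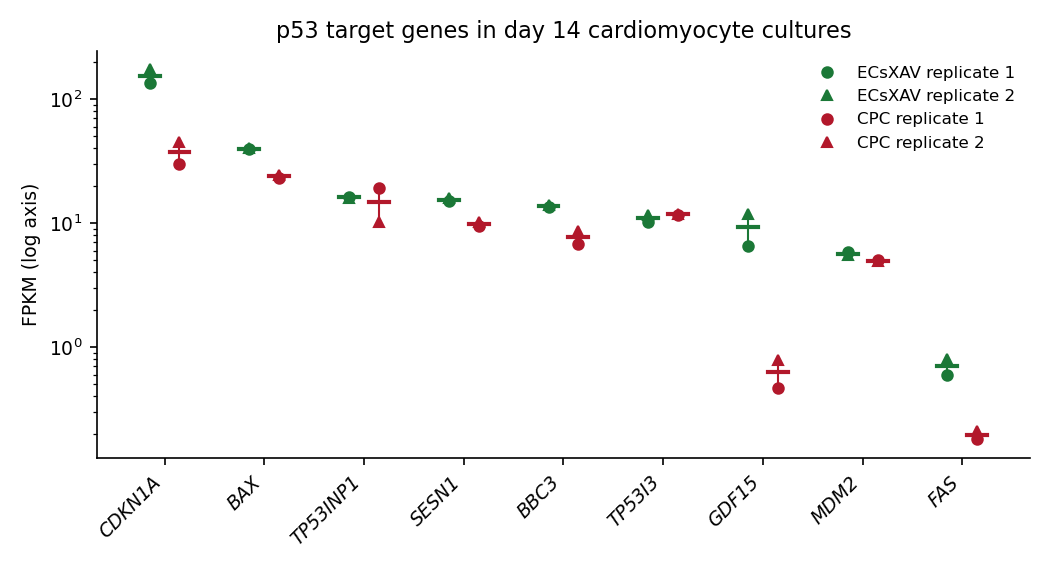
FPKM of the 9 p53 target genes (log axis) in each ECsXAV library (green) and CPC library (red), with circles for replicate 1, triangles for replicate 2 and thick bars for the mean of 2. CDKN1A, GDF15 and FAS show the widest gaps between the groups, at ratios of the means of 4.12, 14.6 and 3.59, while TP53I3 and TP53INP1 overlap.

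GDF15, a secreted stress cytokine of the TGFβ superfamily (chromosome 19, 18485541 to 18499986), showed a larger ratio between the groups than CDKN1A. Its values were 6.56 and 11.9 FPKM in the pair of ECsXAV libraries, compared with 0.469 and 0.794 FPKM in the CPC pair, a ratio of the means of 14.6. The difference was -2.61 (standard error 0.29) with the added 1 and -3.65 with an added 0.1. The gene passed the filter of 1 FPKM through its ECsXAV level alone. In both groups its replicate 2 was higher than its replicate 1, by 1.82-fold and 1.69-fold, but the groups did not overlap.

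The 3 apoptosis genes were also lower in the CPC libraries, by less. BAX, the pore-forming effector of the mitochondrial pathway, had 39.5 and 40.2 FPKM in the pair of ECsXAV libraries, compared with 23.3 and 24.3 FPKM in the CPC pair. The replicates of each group lay close together and the difference was -0.72 (standard error 0.10). BBC3, which encodes the BH3-only protein PUMA, had 13.4 and 14.0 FPKM against 6.84 and 8.64 FPKM, a difference of -0.76 (standard error 0.14). FAS, the death receptor, had 0.596 and 0.805 FPKM against 0.180 and 0.210 FPKM, a ratio of 3.59 at a level below the filter. FAS shares exonic sequence on the opposite strand with ACTA2, a smooth muscle actin gene at 57.5 to 80.5 FPKM. Whether the FPKM separate the strands is not given in the sources used here, and the part of ACTA2 in the FAS values was not tested.

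Of the genes for redox and metabolic control, SESN1 and TP53I3 did not show the same difference. SESN1, a sestrin that restrains mTORC1 signaling, had 15 and 15.9 FPKM in the pair of ECsXAV libraries, compared with 9.40 and 10.3 FPKM in the CPC pair, a difference of -0.60 (standard error 0.11). TP53I3, a quinone oxidoreductase also called PIG3, had 10.3 and 11.7 FPKM against 11.6 and 11.9 FPKM. Its libraries overlapped and its difference of 0.08 (standard error 0.12) was less than its standard error, the only positive value among the 9.

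The feedback genes showed little or no separation. MDM2 had 5.80 and 5.54 FPKM in the pair of ECsXAV libraries, compared with 5.06 and 4.91 FPKM in the CPC pair. The groups did not overlap, but the ratio of the means was 1.14 and the difference was -0.16 (standard error 0.11). CPM, which lies on the opposite strand and shares exonic sequence with MDM2, had 1.95 and 1.6 FPKM against 0.437 and 0.484 FPKM, and its part in the MDM2 values was not tested. TP53INP1, a stress-induced cofactor of p53 that also acts in autophagy, had 16.2 and 16.0 FPKM against 19.2 and 10.3 FPKM. The CPC replicates fell on either side of the ECsXAV replicates, and its difference of -0.18 (standard error 0.29) ran from -0.60 without CPC replicate 1 to 0.24 without CPC replicate 2.

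**Figure D2:**
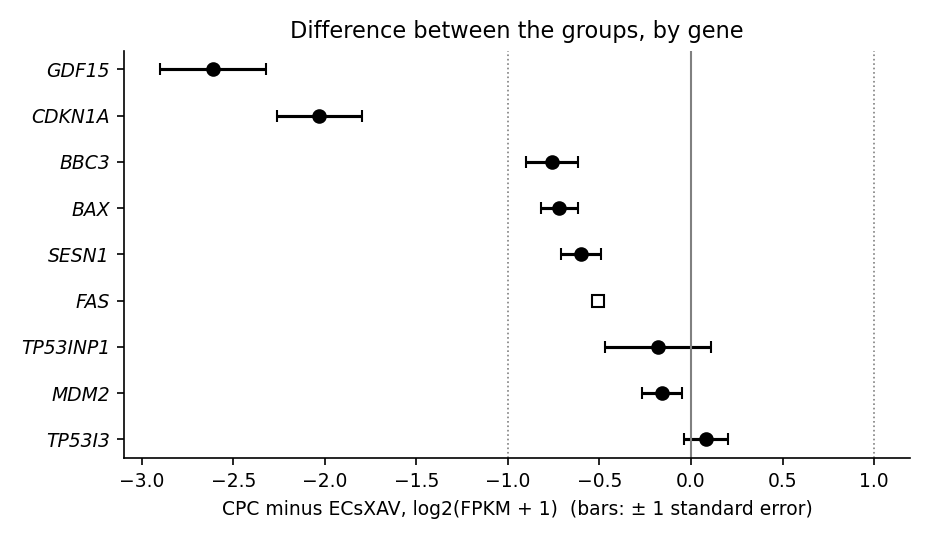
Difference in log2(FPKM + 1) between the groups (CPC minus ECsXAV) for each gene, with bars of 1 standard error from the fit across all tested genes, and an open square without a bar for FAS, which was not in the fit. The dotted lines mark 2-fold, beyond which lie GDF15 at -2.61 and CDKN1A at -2.03.

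In all, 8 of the 9 genes had a negative difference, as did 50.8% of the 12398 tested genes. For 7 of them both CPC libraries were below both ECsXAV libraries, an arrangement that held for 25.4% of the tested genes, and 0 had the reverse arrangement, which held for 24.4%. The 8 genes other than CDKN1A had a median difference of -0.55, against 0.00 for all tested genes. A criterion of an adjusted p under 0.05 from limma with a change over 2-fold was met by 2 of the 8 genes tested, CDKN1A and GDF15, and by 2.15% of all genes. As the members were chosen with this contrast known and GDF15 entered the fit through its ECsXAV level alone, these counts are no test of the members and support nothing further. Without CPC replicate 1 or without CPC replicate 2 neither gene met the criterion, and without either ECsXAV replicate GDF15 alone did.

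The order of levels was led by CDKN1A, BAX and TP53INP1 in both groups and differed after them. In the ECsXAV libraries they were followed by SESN1, BBC3, TP53I3, GDF15, MDM2 and FAS. TP53I3 and GDF15 overlapped there, and TP53INP1 and SESN1 were separated by less than 1 FPKM. In the CPC libraries GDF15 stood below MDM2, and the range of TP53INP1 took in TP53I3 and overlapped that of SESN1. By the distance between centred profiles over the 4 libraries (root mean square of log2(FPKM + 1), in which 0 is an identical profile), GDF15 was nearest to CDKN1A at 0.336. The other members lay at 0.652 to 1.07.

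Per-transcript FPKM, which come from the same reads and are no independent evidence, showed where these differences sat. For CDKN1A the division between 2 RefSeq transcripts was not stable between replicates. NM_078467 had 77.9 and 15.4 FPKM in the pair of ECsXAV libraries, compared with 27.8 and 1.23 FPKM in the CPC pair, while NM_001220777 had 43.7 and 140.0 FPKM against 0.741 and 39.2 FPKM. The share of NM_078467 was thus 57.5% and 8.90% in one group and 91.9% and 2.76% in the other, and the difference in CDKN1A could be followed only as their sum. The transcript NM_000389 had 13.2 and 15.4 FPKM against 1.69 and 3.93 FPKM, the direction of the gene.

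SESN1 gave a steadier picture, in which its 2 main transcripts went opposite ways. NM_001199933 had 12.6 and 14.3 FPKM in the pair of ECsXAV libraries, compared with 5.65 and 6.60 FPKM in the CPC pair. NM_014454 had 2.40 and 1.54 FPKM against 3.75 and 2.78 FPKM, so the lower SESN1 level of the CPC libraries came from NM_001199933 alone. The share of NM_001199933 was 87.2% ± 4.41 (SD, n = 2) in ECsXAV and 61.9% ± 2.55 (SD, n = 2) in CPC cardiomyocytes. For BAX, the main transcript NM_138761 had 22.3 and 27.0 FPKM against 18.8 and 21.8 FPKM. NM_138763 had 13.8 and 8.05 FPKM against 3.39 and 0.633 FPKM and accounted for a larger part of the difference between the groups. GDF15 and MDM2 have a single transcript in the table, and the shares of the main transcripts of FAS, BBC3, TP53I3 and TP53INP1 overlapped between the groups.

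**Figure D3:**
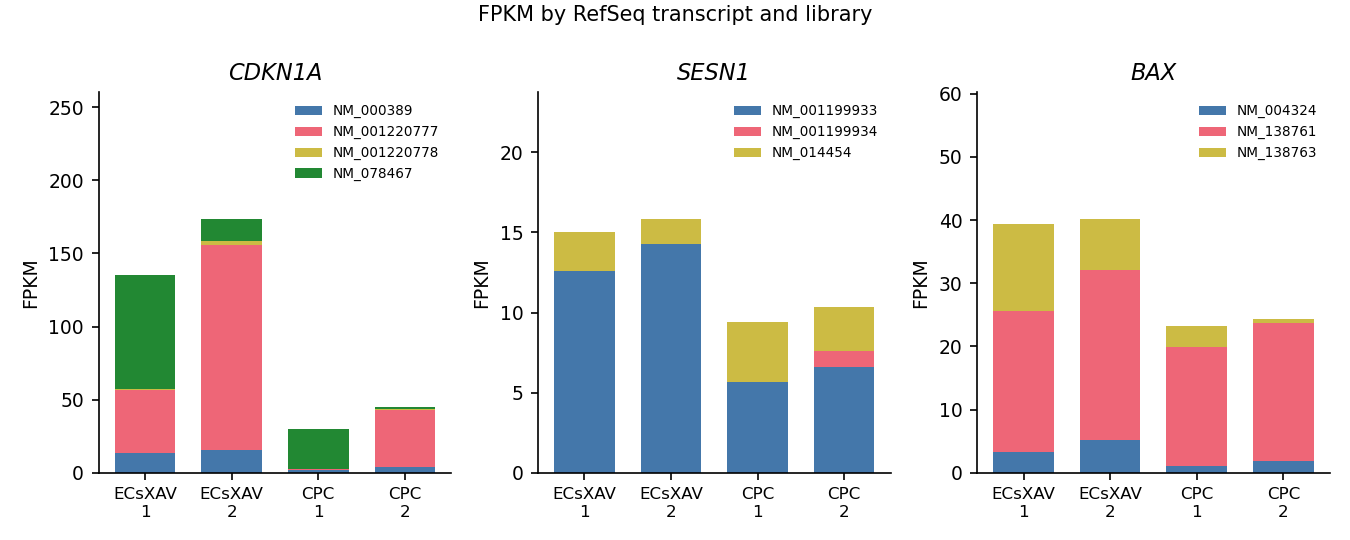
FPKM of CDKN1A, SESN1 and BAX in each library, stacked by RefSeq transcript, with transcripts under 0.1 FPKM in every library left out. The CDKN1A bars keep their height order between the groups while NM_078467 and NM_001220777 trade places between replicates, and in SESN1 the NM_001199933 part is 12.6 and 14.3 FPKM in the ECsXAV libraries and 5.65 and 6.60 FPKM in the CPC libraries.

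A further 67 genes, taken as direct p53 targets, were listed with earlier results of these data known. Their counts and p-values are therefore a description and no independent test. The difference went in the direction of CDKN1A, was spread over many genes and was small in most. Of the 67 genes, 58 had a mean of at least 1 FPKM and were tested. The CPC minus ECsXAV difference was negative for 42 and positive for 16, with a median of -0.28 against 0.00 for all tested genes. Both CPC libraries lay below both ECsXAV libraries for 32 of the 58 (55.2%, against 25.4% of all tested genes) and above them for 8 (13.8%, against 24.4%). At single genes the criterion was met by 1, lower in CPC (1.44% of all tested genes met it in this direction), and by 0 higher in CPC (0.71% of all). At any fold, 3 had an adjusted p under 0.05 by limma (2.89% of all). The unadjusted p was under 0.05 for 25 of the 58 and for 18.2% of all tested genes. That gene was TNFRSF10C, a decoy receptor for the death ligand TRAIL, with 4.47 and 4.56 FPKM in the pair of ECsXAV libraries, compared with 1.3 and 1.01 FPKM in the CPC pair. Its difference was -1.36 (standard error 0.14, adjusted p = 0.0239 from limma). The adjusted p was 0.0879 to 0.109 when any 1 library was left out, and reads of the similar TNFRSF10 receptors could have been divided between them. Of the 58 differences, 39 to 46 were negative when a library was left out, and 42 under each alternative scaling between libraries.

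Sorted by role, both CPC libraries lay below both ECsXAV libraries for 19 of the 22 tested arrest, apoptosis and feedback genes (86.4%). For the 36 genes of other roles the count was 13 (36.1%), and over all tested genes the share was 25.4%. The reverse arrangement held for 1 of the 22 (4.55%) and 7 of the 36 (19.4%), against 24.4% of all. The roles pooled first are those with the highest shares (100%, 90.9% and 66.7%, against 60.0% for the next, DNA repair and nucleotides). This split therefore goes along with the values and is only a description. The difference between these roles was not tested. All 5 tested arrest genes were lower in both CPC libraries than in either ECsXAV library, among them GADD45A at 42.2 and 40.6 FPKM against 21.2 and 23.2 FPKM (-0.87, adjusted p = 0.0345 from limma) and BTG2 at 39.1 and 44.1 FPKM against 22.9 and 24.3 FPKM (-0.79, adjusted p = 0.0451 from limma). GADD45A binds PCNA and BTG2 is an antiproliferative coregulator, and neither difference reached 2-fold. The same arrangement held for 10 of the 11 tested apoptosis and autophagy genes, with a median of -0.49. One of them was EDA2R, a death-domain receptor, at 6.27 and 6.01 FPKM against 3.61 and 2.30 FPKM (-0.87, adjusted p = 0.10 from limma). Of the 6 feedback genes, 4 had it, and the median was -0.31.

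Of the 5 genes for DNA repair and nucleotide supply, 3 were lower in both CPC libraries and 1 was higher, XPC, a damage sensor of nucleotide excision repair, at 9.34 and 9.96 FPKM against 12.5 and 11.1 FPKM (0.27, adjusted p = 0.323 from limma). The 12 metabolic and redox genes had a median of 0.07, with 1 lower and 3 higher in both CPC libraries. These included CPT1C, a carnitine palmitoyltransferase, at 1.82 and 1.99 FPKM against 4.01 and 3.88 FPKM (0.77, adjusted p = 0.0566 from limma), and STEAP3, a ferrireductase, at 0.899 and 0.639 FPKM against 1.49 and 1.13 FPKM (0.38, adjusted p = 0.349 from limma). The remaining 19 genes ran from -0.83 for SLC12A4, a potassium-chloride cotransporter, at 18.3 and 23.4 FPKM against 10.7 and 11.8 FPKM (adjusted p = 0.0725 from limma), to 1.17 for TGFA, a ligand of the EGF receptor, at 2.40 and 2.72 FPKM against 5.18 and 9.34 FPKM (adjusted p = 0.109 from limma). Among the tested genes of the list with a consensus match, 11 of 16 were lower in both CPC libraries and 0 were higher in both. Without a match, the counts were 21 and 8 of 42. The difference between genes with and without a match was not tested, and the site search was added after the values were seen. Over all tested genes, 28.7% of the 529 with a match were lower in both CPC libraries, near the 25.4% of all genes.

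**Figure D4:**
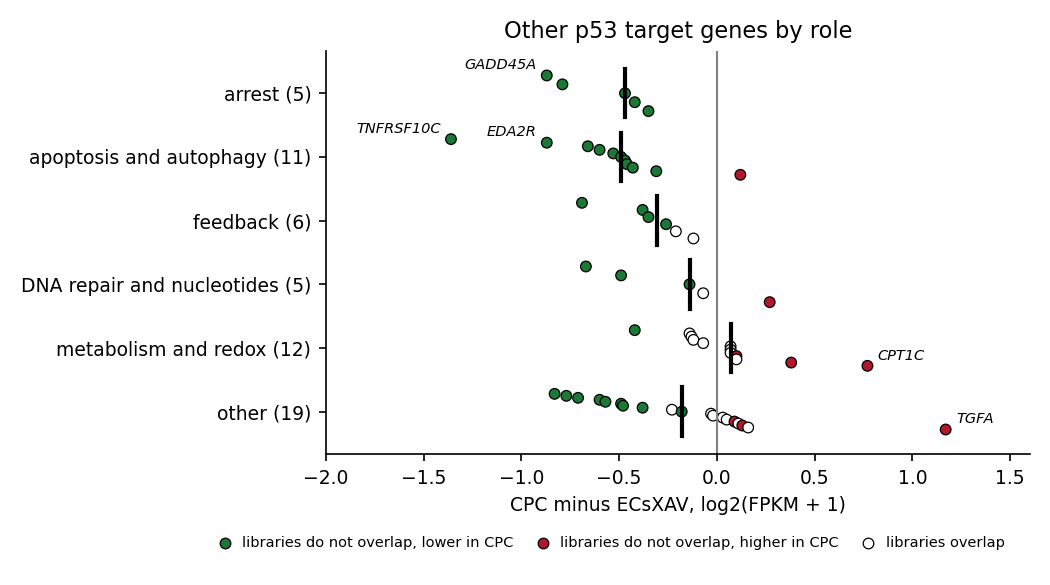
Difference in log2(FPKM + 1) between the groups for the 58 tested genes of the wider p53 target list, 1 point per gene, by role with the number of genes in brackets and a vertical bar for the median. Green points have both CPC libraries below both ECsXAV libraries, red points the reverse, and open points overlap. The arrest, apoptosis and feedback genes lie mostly left of 0 with medians of -0.47, -0.49 and -0.31, and the metabolic genes lie around 0.07.

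Protein level and activity of p53 were not measured by these data. Of the p53 family, TP63 was listed at 0 in every library, and TP73 had 0.0705 to 0.122 FPKM. MDM4, an inhibitor of p53 related to MDM2, had 2.70 and 2.26 FPKM against 3.35 and 3.35 FPKM (0.32, adjusted p = 0.301 from limma). Of 17 genes for the p53 family and its regulators, among them the damage kinases ATM, ATR, CHEK1 and CHEK2, 14 were tested. By limma 0 met the criterion and 1 had an unadjusted p under 0.05 (18.2% of all tested genes had). In both CPC libraries 5 were higher (35.7%, against 24.4% of all tested genes) and 0 lower (against 25.4%). The median was 0.08, and without CPC replicate 1 it was -0.03.

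The cyclins and kinases that p21 binds were themselves lower in the CPC libraries, or did not separate. Of 10 tested partners, 7 were lower in both CPC libraries (25.4% of all tested genes were) and 0 higher (24.4% of all). The mitotic kinase CDK1, at 12.4 and 10.3 FPKM against 3.81 and 3.49 FPKM (-1.41, adjusted p = 0.0208 from limma), and the G1 cyclin CCND1, at 10 and 11.9 FPKM against 3.73 and 4.53 FPKM (-1.22, adjusted p = 0.0327 from limma), met the criterion, as did 1.44% of all tested genes in this direction. In a list of 20 cell cycle genes of the kind that p21 represses through the E2F and DREAM complexes, 9 of 19 tested met the criterion, all lower in CPC (CDK1, which both lists hold, CCNB1, CCNB2, CDC20, PLK1, AURKB, BIRC5, TOP2A and MKI67), against 1.44% of all tested genes. The cultures with more CDKN1A RNA thus also had more RNA of these cell cycle genes. Both lists were chosen with earlier results of these data known, so their counts are descriptions. The study had itself reported differences in cell cycle regulation between these populations. With any 1 library left out 0 of the 19 and 0 of the 10 partners met the criterion, although the median of the 19 stayed between -1.16 and -0.89. Among the other CDK inhibitors 0 of 3 tested met the criterion and 1 had an unadjusted p under 0.05 from limma (18.2% of all tested genes had). The level of CDKN1B was 28.4 and 28.3 FPKM against 31.1 and 30.6 FPKM and that of CDKN1C 28.3 and 35.1 FPKM against 13.6 and 19.4 FPKM. Of the 3 tested, 1 was lower in both CPC libraries (25.4% of all tested genes were), 1 was higher (24.4% of all) and 1 overlapped. With the 3 inhibitors under the filter included, 4 of 6 were lower and 1 higher. Among the lower was CDKN2B, which inhibits CDK4 and CDK6, at 1.26 and 1.68 FPKM against 0.213 and 0.155 FPKM, below the filter and so not tested.

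Both of the members with the widest gaps are known to answer to other inputs as well, TGFβ for CDKN1A and the integrated stress response for GDF15. The lists for these inputs were chosen with earlier results of these data known, so their counts are descriptions. Of 10 genes of a TGFβ response list, all tested, 3 met the criterion, all lower in CPC (1.44% of all tested genes). These included the matrix protein gene TGFBI at 13.7 and 20 FPKM against 0.50 and 0.50 FPKM (-3.55, adjusted p = 0.00676 from limma) and CTGF at 23.2 and 29.9 FPKM against 6.83 and 7.09 FPKM (-1.78, adjusted p = 0.0163 from limma). Without CPC replicate 1 or without CPC replicate 2 none of the 3 met it, and without ECsXAV replicate 2 CTGF did not, with adjusted p of 0.0746. Of the list, 3 of 10 genes were lower and 2 of 10 higher in both CPC libraries, near the 25.4% and 24.4% of all tested genes. Of 11 tested genes of an integrated stress response list, 0 met the criterion and 3 had an unadjusted p under 0.05 from limma (18.2% of all tested genes had). In both CPC libraries 2 were lower (18.2%, against 25.4% of all) and 4 higher (36.4%, against 24.4%). ATF4, the central transcription factor of this response, had 74.8 and 87.4 FPKM against 70.9 and 86.2 FPKM. DDIT3 had 18.4 and 20.4 FPKM against 18.5 and 29.8 FPKM, and TRIB3 had 1.53 and 1.16 FPKM against 1.78 and 1.74 FPKM. ATF3, which both pathways induce, had 10.5 and 14.0 FPKM against 4.08 and 5.75 FPKM (-1.17, adjusted p = 0.0669 from limma), and met the criterion when the replicate number was a block or when short RNA genes were left out.

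The genes described here whose profile over the 4 libraries lay nearest to that of CDKN1A were not among the p53 targets listed. Among 5525 genes with a mean of at least 10 FPKM, the nearest 5 included the gap junction gene GJA1 at a distance of 0.119, the neuronal ubiquitin hydrolase gene UCHL1 at 0.131, the small heat shock protein gene CRYAB at 0.171 and the muscle ankyrin repeat gene ANKRD1 at 0.204. CRYAB had 291 and 282 FPKM in the pair of ECsXAV libraries, compared with 58.6 and 98.7 FPKM in the CPC pair, and ANKRD1 had 288 and 285 FPKM against 73.6 and 100 FPKM. The filter of 10 FPKM left out GDF15, at 0.336 from CDKN1A, and other listed targets of lower level, which therefore could not appear among the 5. All these distances rest on 4 libraries only.

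Markers of some other cell types moved with the same contrast. The summed FPKM of 8 fibroblast and mesenchymal markers was 192 and 227 in the ECsXAV libraries and 107 and 105 in the CPC libraries. Of the 8, 6 were lower in both CPC libraries and 1 higher. Among the 6 tested, 4 were lower (25.4% of all tested genes were) and 1 higher (24.4% of all). The sum of 8 hepatic and endoderm markers was 41.9 and 36.4 FPKM against 19.4 and 21.3 FPKM. Of the 8, 7 were lower in both CPC libraries, but 4 of the 8 stayed under 1 FPKM in every library. The 4 tested were all lower (25.4% of all tested genes were). The largest part of the difference in the sum was AFP, at 11.4 and 9.70 FPKM against 0.199 and 0.124 FPKM. APOA1 differed little, at 20.6 and 17.9 FPKM against 15.9 and 17.8 FPKM. The sum of 8 endothelial markers was 11.1 to 14.3 FPKM and overlapped between the groups. That of 6 blood markers was 3.09 and 5.39 FPKM against 0.494 and 0.430 FPKM, with PTPRC listed at 0 throughout. Most of the ECsXAV blood sum was HBE1 at 2.13 and 4.55 FPKM, and 5 of the 6 blood markers stayed under 1 FPKM in every library. The sum of 8 cardiomyocyte markers, in which the myosin light chain gene MYL7 weighs most, was 14209 and 13721 FPKM against 12914 and 13579 FPKM. Within it 4 of the 8 genes had a negative log2 difference (50.8% of all tested genes had) and 4 a positive one. Their median was -0.08. In both CPC libraries 3 were lower (25.4% of all tested genes were) and 2 higher (24.4% of all). Among the higher was the myosin heavy chain gene MYH6, at 855 and 857 FPKM against 2070 and 1901 FPKM (1.21, adjusted p = 0.0358 from limma). The sum of 6 skeletal muscle genes was 412 and 497 FPKM against 439 and 535 FPKM, most of it CKM, and ACTN3 among them had 37.2 and 55.9 FPKM against 130 and 129 FPKM (1.48, adjusted p = 0.044 from limma). The sum of 5 pluripotency genes was 1.85 to 2.80 FPKM. The part of these cells in the CDKN1A and p53 target values was not tested.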

How the data were processed

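FPKM were computed by the authors with Cufflinks and UCSC gene annotations on hg19, per library. The submitters' processing notes also name TopHat 1.3.3. A scaling between libraries, the handling of reads with several alignments and the strand setting of the FPKM are not given in the sources used here. Read counts were not used here, so total depth is unknown and the count test of the study was not repeated. Relative depth was taken from the modal ratio of FPKM between 0.005 and 0.1. The deposited gene and isoform tables hold these FPKM. Of several entries per symbol, the one with the highest mean was used.

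Differences were computed on log2(FPKM + 1). limma 3.58.1 (R 4.3.3) with an intensity trend and Benjamini-Hochberg adjustment was run on the 12398 genes with a mean of at least 1 FPKM, without the replicate number. The smallest two-sided p of an exact permutation test on 2 libraries per group is 0.333, and limma's p-values draw on the spread pooled over genes. Group and replicate came from the labels. Because sample names begin differently in the groups, experiment and group cannot be told apart. Coordinates and DNA came from GRCh37 with GENCODE 44. The fit was tested on simulated data. The 9 genes and all lists were chosen with earlier results of these data known, and the site search was added after the values were seen. No p is given for the 9 genes. Named genes are the members, the list genes past the criterion, the 4 targets with the largest other differences in each direction, p53 family genes, 5 stress and TGFβ genes, and the 5 nearest profiles, of which some are not reported here. PLK2 and ZMAT3 were added for their sites, and some marker and overlapping genes for their values. The criterion was an adjusted p under 0.05 with a change over 2-fold. Python 3.11.15, pandas 2.3.3 and matplotlib 3.10.9 made tables and figures. Alternatives were other pseudocounts, filters, scalings, no trend, a replicate block, summed loci, the isoform table, short RNA genes left out and each library left out.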

Additional observations from a re-analysis of the deposited data

How the results depend on the processing

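The difference of CDKN1A stayed between -2.31 and -1.76 under all alternatives, and 7 to 9 of the 9 members were lower in CPC. The median of the other 8 was -0.69 with a pseudocount of 0.1, which weighs GDF15 and FAS more, and -0.61 to -0.49 with a library left out. Of the members, 1 met the criterion among genes of at least 5 FPKM, since GDF15 is not tested there, 0 without a filter, and 0 to 1 with a library left out. Of the wider p53 target list, 0 met it without a filter, among genes of at least 5 FPKM, with the replicate number as a block (TNFRSF10C at an adjusted p of 0.0516 from limma) and with any library left out. With a pseudocount of 0.1 (CPT1C added) and with short RNA genes left out (TGFA added) 2 met it, 1 of them higher in CPC. Over all genes, 266 met it (178 lower and 88 higher in CPC), 20 without a filter (8 and 12), 152 at 5 FPKM or more (93 lower), 176 with the block (117 lower) and 50 to 118 with a library left out (11 to 83 lower, 35 to 56 higher). Except where stated, the cause was not tested. Same-numbered libraries of the groups deviated together only by rank (Spearman's rho 0.356, Pearson's r 0.035 across genes, which are not independent replicates), and the labels do not say that they pair. With the block, 3 of the 19 p21-repressed genes met the criterion, against 9 without it. A lone library of a group is assumed to vary like the other group. The shallowest library, ECsXAV replicate 2, limits genes such as FAS most. With 1 library left out, the CPC minus ECsXAV share of SESN1 NM_001199933 was -28.4 to -22.1 percentage points, whereas that of CDKN1A NM_078467 ran from -30.5 to 58.7 and so changed sign.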
